A study of Sus scrofa with 6 samples.

Results

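Transcription factors whose expression marks the regions of the brain were followed in brain poly(A) RNA of 3 wild boars and of 3 Rongchang pigs, a domesticated breed from China. A list of 46 such factors was taken, and those with a row in the deposited table were kept by gene symbol. This left 31 of the 46, among 18225 genes in all, and the other 15 were not analysed here. All animals were 210 days old, each gave 1 library, and no treatment or engineered allele is named for either group. The labels give the tissue as brain without a region, so the factors were read for the regions they mark, library by library, and then compared between the breeds. Values are FPKM (fragments mapped, relative to transcript length and to the fragments mapped in the library), which are scaled to transcript length and so can be compared between genes of a library. Between libraries they carry a shift, given below with the median gene.

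Regional transcription factors bind DNA and set which genes a neuron can use. During development they divide the neural tube into territories, and many stay on in the adult neurons that descend from each territory. Pallial factors such as TBR1 and EMX1 mark the cortex and hippocampus, DLX and LHX6 factors mark GABAergic neurons born in the ventral forebrain, and engrailed and PITX factors mark the midbrain. Because an adult brain piece carries factors of the neurons in it, their presence or absence can point to the territories those neurons came from. The place of birth need not be the region sampled, and some factors are also made by other cells, as given below. In bulk RNA, fewer cells of a type and less RNA per cell cannot be told apart.

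The libraries held 16510 to 17090 genes above 0, and the sequencing depth behind the FPKM values is unknown. SNAP25, a synaptic fusion protein of all neurons, stood between 786 and 1156 FPKM, and GFAP, the astrocyte filament, between 441 and 525 FPKM. The labels do not say how the animals were related or kept, and p-values speak of the spread among the 6 libraries alone. Over the 13152 genes tested the median gene lay 0.13 log2 units lower in wild boar (log2 fold change −0.13), and fold changes below include this shift unless given relative to it.

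Of the 31 factors, 19 reached 1 FPKM in every library, and between 20 and 24 reached it in any single library. The factors present at high level were those of the cortex and of the forebrain at large, and the 4 midbrain and hindbrain factors with a row reached no more than 0.300 FPKM in any library. Among the 9 factors grouped as pallial, 7 were at or above 1 FPKM in every library. Those 7 lay between 2.93 and 47.6 FPKM.

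**Figure D1:**
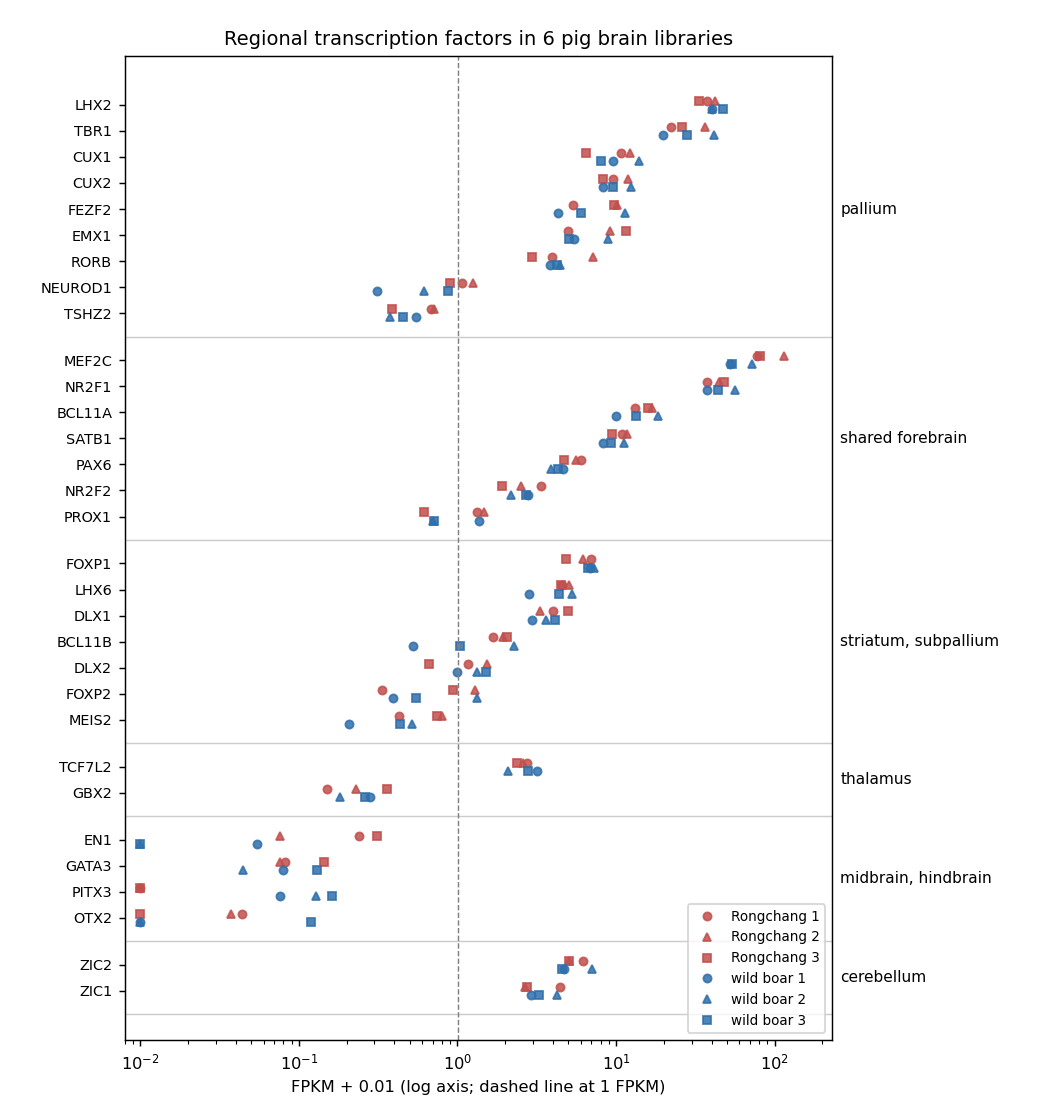
Level of each of the 31 factors in each library, as FPKM + 0.01 on a log axis, with factors grouped by the region they mark; colour gives the breed and the symbol gives the animal number. MEF2C, NR2F1, LHX2 and TBR1 sit at the right, and EN1, GATA3, PITX3 and OTX2 sit far below the dashed line at 1 FPKM in all 6 libraries.

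LHX2, a LIM-homeodomain selector gene of the cortex, was the most abundant pallial factor. It stood at 37.4, 42.0 and 33.4 FPKM in Rongchang 1, 2 and 3 and at 40.1, 40.1 and 47.6 FPKM in wild boar 1, 2 and 3. TBR1 (ENSSSCG00000015891), a T-box factor of deep-layer corticothalamic neurons, stood at 22.1, 36.6 and 26.0 FPKM in the Rongchang pigs and at 19.8, 41.7 and 28.1 FPKM in wild boar. The breeds overlapped for both genes, and for TBR1 the animal numbered 2 was the highest of its breed and the animal numbered 1 the lowest in either breed. With means over the 6 libraries of 40.1 and 29.1 FPKM, LHX2 lay at percentile 92.1 and TBR1 at percentile 89.0 of the genes in the table.

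Factors of single cortical layers were present together. FEZF2, the zinc finger that specifies subcerebral projection neurons of layer 5, stood at 5.36, 10.2 and 9.68 FPKM in the Rongchang pigs and at 4.29, 11.4 and 6.04 FPKM in wild boar. CUX2, a homeobox factor of upper-layer neurons, stood at 9.61, 11.9 and 8.31 FPKM in the Rongchang pigs and at 8.23, 12.5 and 9.53 FPKM in wild boar. Its paralogue CUX1 ranged from 6.47 to 14.1 FPKM, and RORB, the nuclear receptor of layer 4, ranged from 2.93 to 7.13 FPKM. Upper-layer, layer 4 and deep-layer factors were therefore each found in all 6 libraries, and the breeds overlapped for every one of them. EMX1, the homeobox factor of pallial progenitors and excitatory neurons, stood at 4.94, 9.13 and 11.5 FPKM in the Rongchang pigs and at 5.41, 8.90 and 5.05 FPKM in wild boar. It spanned a 2.34-fold range over the libraries, with Rongchang 3 the highest.

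The 2 remaining pallial factors were low. TSHZ2, a zinc finger of a minor class of deep-layer neurons, lay between 0.366 and 0.705 FPKM, and no library reached 1 FPKM. NEUROD1, a basic helix-loop-helix factor of granule neurons of the dentate gyrus and cerebellum, stood at 1.06, 1.25 and 0.882 FPKM in the Rongchang pigs and at 0.302, 0.603 and 0.857 FPKM in wild boar. All 3 wild boars lay below all 3 Rongchang pigs for NEUROD1, by a narrow gap, and the gene did not enter the test because 2 libraries reached 1 FPKM where 3 were required.

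Of the 7 factors that the cortex shares with other forebrain territories, all had a row and all were tested. MEF2C (ENSSSCG00000014149), a MADS-box factor of cortical excitatory neurons that is also made in microglia and vessels, was the most abundant of the 31 factors, with a mean of 75.2 FPKM. NR2F1, the nuclear receptor COUP-TFI that patterns cortical areas, followed at 37.6, 44.8 and 47.8 FPKM in the Rongchang pigs and 37.2, 56.5 and 43.8 FPKM in wild boar. BCL11A, a zinc finger of cortical projection neurons, ranged from 10.01 to 18.3 FPKM, and SATB1, a chromatin organiser of GABAergic interneurons among other cells, ranged from 8.24 to 11.8 FPKM. For these last 3 genes the breeds overlapped, and wild boar 1 was the lowest of the wild boars in each. The related receptor NR2F2, a factor of interneurons from the caudal ganglionic eminence, ranged from 1.91 to 3.35 FPKM. PROX1, which marks dentate granule neurons and caudal interneurons, stood at 1.31, 1.47 and 0.602 FPKM in the Rongchang pigs and at 1.36, 0.695 and 0.703 FPKM in wild boar. PROX1 thus stood near the 1 FPKM bound, with 3 of 6 libraries at or above it.

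Factors of the striatum and of the ventral forebrain (subpallium) were present at lower levels, and 7 of the 13 listed had a row. FOXP1, a forkhead factor of striatal projection neurons and of cortical neurons, was the highest of them. It stood at 6.96, 6.21 and 4.80 FPKM in the Rongchang pigs and at 6.81, 7.23 and 6.70 FPKM in wild boar, and the breeds overlapped. The interneuron factors formed the next group, and they mark where a neuron was born, which need not be the region sampled. LHX6, a LIM-homeodomain factor of interneurons from the medial ganglionic eminence, stood at 4.54, 5.04 and 4.49 FPKM in the Rongchang pigs and at 2.82, 5.27 and 4.36 FPKM in wild boar. DLX1, a homeobox factor of GABAergic neurons, ranged from 2.95 to 4.995 FPKM, and its neighbour DLX2 from 0.653 to 1.52 FPKM. Wild boar 1 was the lowest wild boar for LHX6, DLX1 and DLX2 alike.

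Other factors of striatal projection neurons lay below FOXP1. BCL11B (CTIP2), a zinc finger of striatal and layer 5 projection neurons, stood at 1.67, 1.92 and 2.04 FPKM in the Rongchang pigs and at 0.514, 2.25 and 1.02 FPKM in wild boar. FOXP2, a forkhead factor of striatum, thalamus and layer 6, stood at 0.322, 1.28 and 0.934 FPKM in the Rongchang pigs and at 0.381, 1.33 and 0.538 FPKM in wild boar. In each breed the animal numbered 2 was the highest for FOXP2 and the animal numbered 1 the lowest, as it was for TBR1. MEIS2, a homeobox factor of striatal neurons, lay between 0.196 and 0.791 FPKM. All 3 were far below the pallial TBR1 in every library.

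Outside the telencephalon the signal was small. TCF7L2, a Wnt-pathway factor of thalamic neurons that is also made in the oligodendrocyte lineage, stood at 2.74, 2.60 and 2.35 FPKM in the Rongchang pigs and at 3.18, 2.07 and 2.76 FPKM in wild boar. GBX2, a homeobox factor of the thalamus, lay between 0.140 and 0.351 FPKM. The thalamic pair was thus split, with TCF7L2 above 2 FPKM and GBX2 below 1 FPKM in every library. Oligodendrocyte markers (8 of 12 with a row, none at 0) summed to 2282, 1854 and 2025 FPKM in the Rongchang pigs and to 2405, 1435 and 1885 FPKM in wild boar, and their part in the TCF7L2 values was not tested.

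EN1, a homeobox factor of midbrain dopamine neurons, was listed at 0.230, 0.0658 and 0.300 FPKM in the Rongchang pigs and at 0.0449, 0 and 0 FPKM in wild boar. PITX3, which those neurons also need, was listed at 0 in all 3 Rongchang libraries and at 0.0659, 0.118 and 0.152 FPKM in wild boar. Both therefore separated the breeds, in opposite directions, at levels where the table gives no sign of how many fragments were counted. GATA3, a zinc finger of brainstem neurons and T cells, lay between 0.0348 and 0.134 FPKM. OTX2, a homeobox factor of the midbrain and of the choroid plexus, was listed at 0 in 3 of the libraries and had its highest value, 0.109 FPKM, in wild boar 3. The choroid plexus marker TTR, a secreted thyroid hormone carrier, stood at 34.2 FPKM in wild boar 3 and at no more than 3.01 FPKM in the other libraries. Choroid plexus markers as a list (7 of 10 with a row) summed to 20.7 to 33.2 FPKM in the Rongchang pigs and 29.7 to 61.8 FPKM in wild boar, with PRLR at or near 0 throughout. TTR alone gave 34.2 of the 61.8 FPKM in wild boar 3. Of 2 markers named after their values were seen, KCNJ13 was the lowest of the wild boars there (0.597 FPKM) and SLC4A5 the highest (0.149 FPKM). The part of choroid plexus in the OTX2 value was not tested.

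ZIC1 and ZIC2, zinc fingers best known from cerebellar granule neurons, were present in every library. ZIC2 stood at 6.17, 5.04 and 5.07 FPKM in the Rongchang pigs and at 4.66, 7.05 and 4.53 FPKM in wild boar, and ZIC1 ranged from 2.65 to 4.42 FPKM. The breeds overlapped for both. GABRA6 and FAT2, defining genes of cerebellar granule neurons named here after their values were seen, reached no more than 0.185 and 0.111 FPKM. ZIC genes are also made in the meninges and septum. Meningeal and fibroblast markers (7 of 11 with a row, none at 0) summed to 28.9 to 43.4 FPKM in the Rongchang pigs and 29.4 to 40.6 FPKM in wild boar, and their part in the ZIC values was not tested.

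The makeup of the summed signal was much alike in the 6 libraries. Pallial factors made up 34.2% to 41.0% of the summed FPKM of the 31 factors in a library, and the shared forebrain factors 47.9% to 55.6%. Striatal and subpallial factors contributed 5.59% to 6.95%, the cerebellar pair 2.14% to 3.80% and the thalamic pair 0.672% to 1.48%. The 4 midbrain and hindbrain factors contributed 0.0442% to 0.149%. The order of these 6 groups was the same in every library. Most of the sum came from 4 genes, MEF2C and NR2F1 among the shared factors and LHX2 and TBR1 among the pallial ones.

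Region markers outside the factor list were read as well. The lists hold different genes and no reference region was measured, so their medians do not give the share of a region. The median of 11 cortex markers lay between 52.5 and 81.6 FPKM in the 6 libraries, led by CCK and SLC17A7, the vesicular glutamate transporter of cortical neurons. The median of 10 striatum markers lay between 1.37 and 3.47 FPKM, that of 9 thalamus markers between 3.01 and 5.51 FPKM, and that of 10 midbrain markers between 0.205 and 0.587 FPKM. The cortex median thus stood far above the median of each other region list in every library, but single genes departed from their lists. The cortex marker KCNS1 reached no more than 0.254 FPKM, and the striatum marker PPP1R1B ranged from 18.9 to 28.4 FPKM. Of the midbrain markers, ALDH1A1 ranged from 8.90 to 22.9 FPKM and DDC from 2.30 to 5.34 FPKM. The dopamine transporter SLC6A3, named after its values were seen, reached no more than 0.140 FPKM, and TPH2, the serotonin-synthesising enzyme of the raphe, no more than 0.0697 FPKM. The cerebellum list had a median between 2.01 and 3.19 FPKM and was led by PVALB and ITPR1, which cortical neurons also make. SLC1A6 of that list ranged from 8.08 to 16.4 FPKM.

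**Figure D2:**
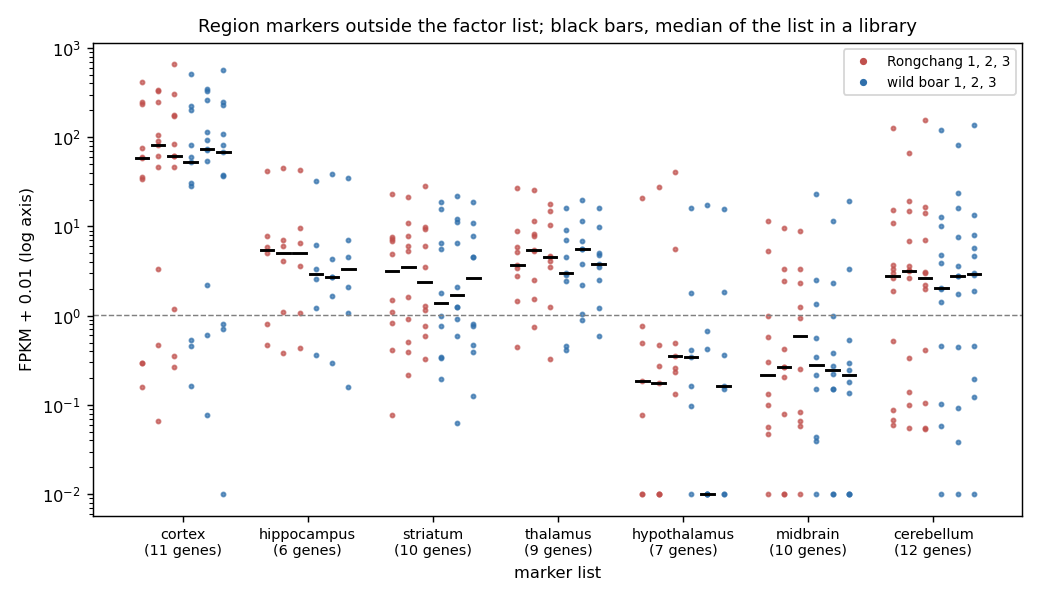
FPKM + 0.01 on a log axis for region markers that are not among the factors, each dot 1 gene in 1 library (Rongchang 1 to 3 left, wild boar 1 to 3 right within a list) and each black bar the median of the list. The cortex medians lie above 50 FPKM in all 6 libraries, and the midbrain and hypothalamus medians lie below 1 FPKM.

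Other regional factors, taken as 2 further lists, showed the same split. Of 38 further forebrain factors 28 had a row, and 25 of these were at 1 FPKM or above in every library. ID2, a helix-loop-helix inhibitor, was among the most abundant, at 31.3 to 38.0 FPKM. Of 41 further factors of hypothalamus, midbrain, hindbrain and spinal cord 11 had a row, and 10 of these did not reach 1 FPKM in any library, with values from 0 to 0.882 FPKM. BARHL2, HOXB2 and ATOH1 stayed below 0.1 FPKM in all 6 libraries. The exception was GATA2, a zinc finger made in brainstem neurons and in endothelium, at 2.18, 1.63 and 1.59 FPKM in the Rongchang pigs and 4.19, 2.75 and 2.40 FPKM in wild boar.

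For most factors, as for most genes tested, the breed difference was smaller than the spread within breeds. It was below the pooled SD within breeds for 17 of the 22 factors tested (77.3%), on the log2(FPKM + 1) scale. Of all genes tested 66.9% showed this, so it is no trait of the factors. The within-breed SD was largest for FEZF2 (0.55), EMX1 (0.48) and TBR1 (0.45) and smallest for PAX6 (0.13) and LHX2 (0.15). Among the 7 pallial factors tested the SD thus ran from near the lowest of all 22 (LHX2) to the highest (FEZF2).

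The highest library of a breed was often the animal numbered 2, and the library that was most often lowest had a different number in each breed. Rongchang 2 was the highest Rongchang library for 12 of the 22 factors (54.5%), against 38.5% of all genes tested, and wild boar 2 the highest wild boar for 15 (68.2%), against 47.9%. Both held together for 9 factors (40.9%), against 28.5% of all genes, and for 5 of the 7 pallial ones. Wild boar 1 was the lowest wild boar for 13 factors (59.1%), against 37.4% of all genes, while Rongchang 1 was the lowest Rongchang library for 7 (31.8%), against 39.0%. Rongchang 3 was the lowest Rongchang library for 12 (54.5%), against 27.5%, while wild boar 3 was the lowest wild boar for 4 (18.2%), against 30.8%. Markers of excitatory neurons (6 of 8 with a row, none at 0) summed to 1470, 1926 and 1921 FPKM in the Rongchang pigs and 1403, 1979 and 1822 FPKM in wild boar, with the animal numbered 1 the lowest in each breed. The part of neuron content in the order of the factors was not tested.

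**Figure D3:**
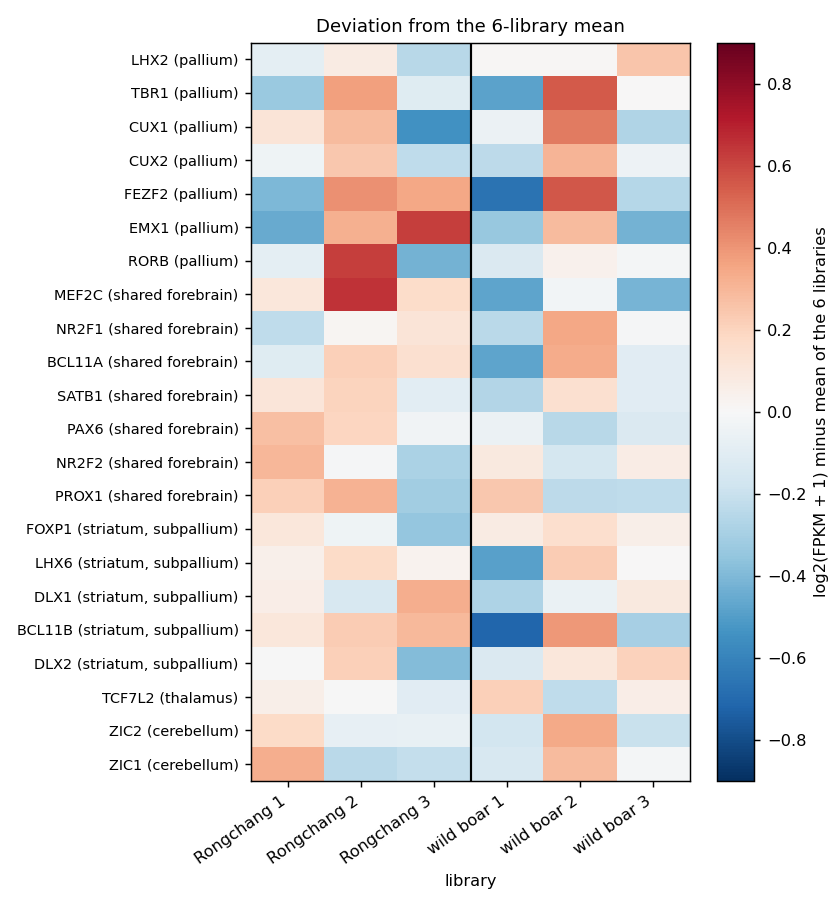
Deviation of each tested factor in each library from its mean over the 6 libraries, in log2(FPKM + 1), red for higher and blue for lower. The columns of Rongchang 2 and wild boar 2 are mostly red for the pallial factors, and wild boar 1 is blue for TBR1, FEZF2, BCL11A, LHX6 and BCL11B.

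**Figure D4:**
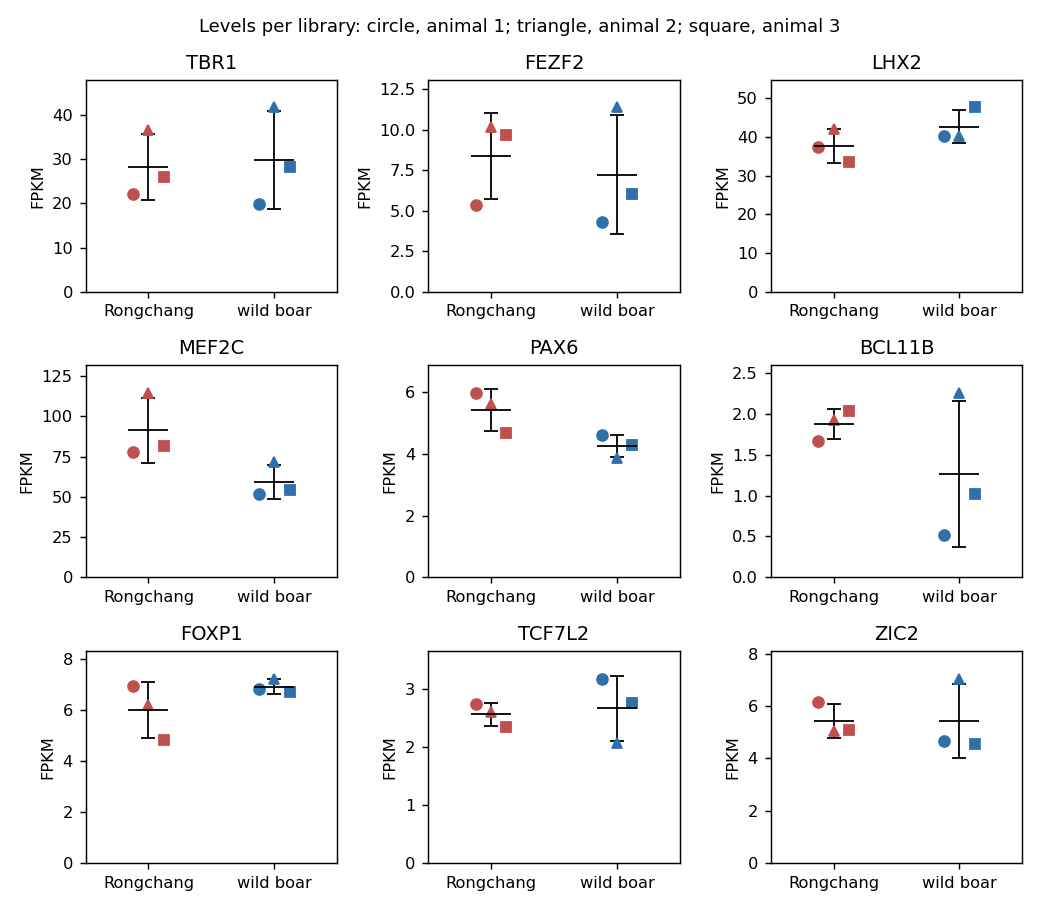
FPKM of 9 factors by breed on axes that start at 0, with each library as a symbol (circle, triangle and square for animals 1, 2 and 3) and the mean ± SD of 3 libraries as a black bar with whiskers. MEF2C and PAX6 are the 2 genes here whose breeds do not overlap.

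Between the breeds, none of the 22 factors tested passed (0 in limma at an adjusted p under 0.05, with adjusted p from 0.789 to 0.999), where 1 of all genes tested did (0.00760%). At an unadjusted p under 0.05 stood 1 factor, MEF2C, which was lower in wild boar, against 5.42% of all genes that were lower and 0.578% that were higher at that mark. When the libraries were brought to 1 common median, the genes at that mark split into 248 higher and 246 lower, from 76 and 713, and no factor remained at it. In a fit with the common median that also takes the animal number as a block, 2 factors stood at it, MEF2C lower and FOXP1 higher (unadjusted p = 0.0465), with 719 genes higher and 660 lower. The groups did not overlap for 2 of the 22, MEF2C and PAX6, both lower in wild boar, against 12.5% of all genes (11.4% lower and 1.12% higher). A share of 2 in 22 lies near that background. Fold changes of the 22 ran from −0.61 to 0.19 with a median of −0.05, against −0.13 for all genes. Of the 22, 13 lay below 0, where 77.9% of all genes did, and 10 lay below the median gene.

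**Figure D5:**
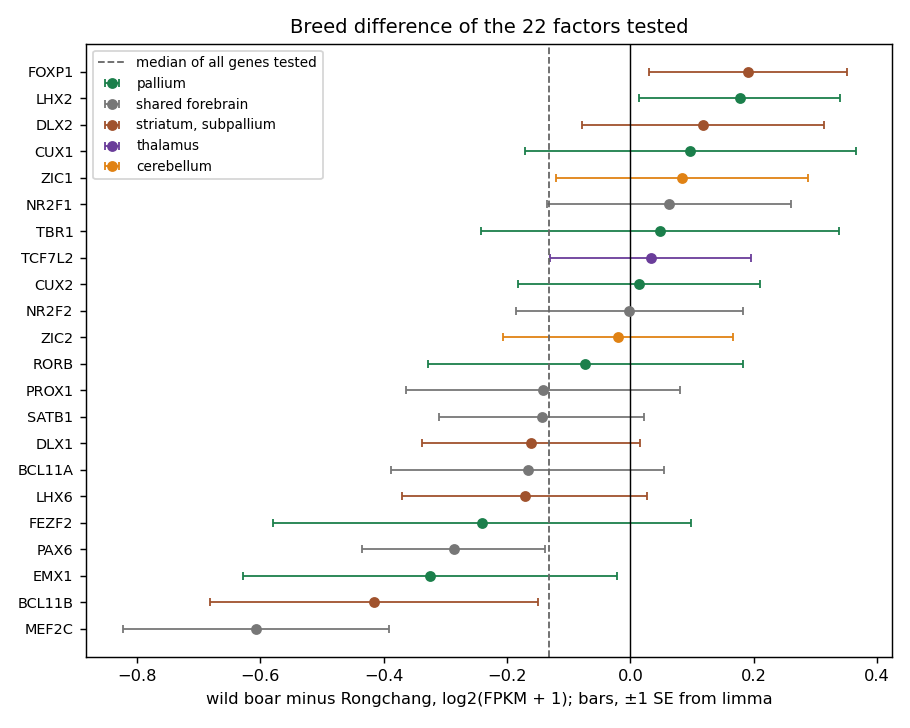
Wild boar minus Rongchang difference of the 22 tested factors in log2(FPKM + 1), points for the estimate and bars for ±1 SE from limma, coloured by region group. MEF2C lies lowest at −0.61 and FOXP1 highest at 0.19, and the dashed line marks the median of all genes tested at −0.13.

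MEF2C stood at 77.9, 114 and 81.3 FPKM in Rongchang 1, 2 and 3 and at 52.0, 71.5 and 54.2 FPKM in wild boar 1, 2 and 3. All 3 wild boars lay below all 3 Rongchang pigs, and within each breed the animal numbered 2 was the highest. The means were 91.2 ± 20.2 FPKM in the Rongchang pigs and 59.2 ± 10.7 FPKM in wild boar (SD, n = 3 each), a log2 fold change of −0.61 (SE 0.22), or −0.48 relative to the median gene. In limma this gave an unadjusted p of 0.0224 and an adjusted p of 0.789. In the fit that takes the animal number as a block, the unadjusted p was 3.71e-04 and the adjusted p 0.193, where 16.0% of all genes were lower at an unadjusted p under 0.05. Unadjusted p was above 0.05 without Rongchang 2 (0.0834), without wild boar 1 (0.0767) and without wild boar 3 (0.0751), and also with median scaling (0.0590) and quantile normalization (0.0807). With median scaling and the block together it was 0.00287 (adjusted p = 0.430), at a fold change of −0.44.

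MEF2C was also set against each of the 18 other factors present in every library, as a ratio within the library, after its values were seen and without a test. The ratio lay lower in all 3 wild boars than in all 3 Rongchang pigs for 8 of the 18 and overlapped for 10. To TBR1 it was 3.52, 3.13 and 3.13 in Rongchang and 2.63, 1.71 and 1.92 in wild boar, with no overlap. To BCL11A it was 5.89, 6.82 and 5.10 in Rongchang and 5.19, 3.91 and 4.08 in wild boar, and to EMX1 15.8, 12.5 and 7.05 and then 9.62, 8.04 and 10.7, both with overlap. To its own paralogue MEF2A, which ranged from 20.7 to 30.4 FPKM with a fold change of 0.08, the ratio was 3.45 to 3.94 in Rongchang and 2.15 to 2.44 in wild boar. MEF2C has the lowest fold change of the 22, so these ratios restate that choice and are no independent support, and a ratio does not show which of its genes differed. Cells other than neurons that make MEF2C were followed by their markers. Microglia and macrophage markers (8 of 12 with a row, none at 0) summed to 68.9 to 109 FPKM in the Rongchang pigs and 56.6 to 116 FPKM in wild boar and overlapped. Endothelial and pericyte markers (8 of 12, none at 0) summed to 28.7 to 37.6 FPKM in the Rongchang pigs and 40.1 to 42.5 FPKM in wild boar and did not overlap. The part of either cell type in the MEF2C values was not tested.

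PAX6, a paired homeobox factor of radial glia that persists in astrocytes and some neurons, stood at 5.97, 5.61 and 4.67 FPKM in the Rongchang pigs and at 4.59, 3.86 and 4.29 FPKM in wild boar. The lowest Rongchang pig and the highest wild boar were nearly level. Its means were 5.42 ± 0.669 and 4.25 ± 0.367 FPKM (SD, n = 3 each), with a log2 fold change of −0.29 (SE 0.15) and −0.15 relative to the median gene. The unadjusted p of 0.0896 and adjusted p of 0.789 in limma did not pass. Astrocyte markers (8 of 10 with a row, none at 0) summed to 2349 to 2868 FPKM in the Rongchang pigs and 2002 to 2952 FPKM in wild boar, and their part in the PAX6 values was not tested.

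BCL11B and the layer 5 factor FEZF2 had fold changes of −0.42 (SE 0.27) and −0.24 (SE 0.34), and EMX1 of −0.32 (SE 0.30). The SE exceeded the fold change for FEZF2 and nearly equalled it for EMX1, and wild boar 2 lay above all 3 Rongchang pigs for BCL11B and FEZF2. Without wild boar 2 the fold change of BCL11B was −0.71, with an unadjusted p of 0.00642, and without wild boar 1 it was −0.16. The estimate for BCL11B thus rested on which wild boars entered it. On the other side FOXP1 had a fold change of 0.19 (SE 0.16), LHX2 of 0.18 (SE 0.16) and DLX2 of 0.12 (SE 0.20). FOXP1 and LHX2 kept a fold change above 0 in every alternative tried, but neither passed in limma (adjusted p = 0.857 for both). The fold changes of NR2F2 (−0.002), CUX2 (0.01), ZIC2 (−0.02), TCF7L2 (0.03) and TBR1 (0.05) lay closest to 0, with SEs from 0.16 to 0.29, and each changed sign in some alternatives.

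Among the 26 other regional factors tested, none passed (0 in limma), and 2 stood under 0.05 before adjustment, both higher in wild boar, where 0.578% of all genes stood higher at that mark. GATA2 had a log2 fold change of 0.54 (adjusted p = 0.789) with no overlap between the breeds, and the endothelial markers given above were likewise without overlap and higher in wild boar. The part of vessels in the GATA2 values was not tested. NR4A2, a nuclear receptor of midbrain dopamine neurons and of deep cortical layers that is also induced by activity, stood at 9.22, 9.32 and 7.75 FPKM in the Rongchang pigs and at 10.8, 15.6 and 11.4 FPKM in wild boar. Its log2 fold change was 0.47 (adjusted p = 0.789), and the breeds did not overlap. The 26 had a median fold change of −0.01, above that of all genes, as the 22 factors had.

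NEUROD1 and PROX1, the factors of dentate granule neurons, had means of 1.06 ± 0.183 and 1.13 ± 0.462 FPKM in the Rongchang pigs and of 0.588 ± 0.278 and 0.920 ± 0.383 FPKM in wild boar (SD, n = 3 each). PROX1 overlapped widely, lay at −0.01 relative to the median gene and changed sign with quantile normalization (0.003). Hippocampus markers outside the factors had 6 rows of 12 listed and 5 tested, of which 4 lay below 0, where 77.9% of all genes did, and 0 passed in limma, with 2 under 0.05 before adjustment. C1QL2, a synaptic protein of dentate granule neurons with the smallest p of the list, stood at 5.94, 5.96 and 6.47 FPKM in the Rongchang pigs and at 2.58, 2.69 and 4.51 FPKM in wild boar (adjusted p = 0.724). C1QL2, FAM163B, MAN1A1 and HOMER3, 4 of the 5 markers tested, lay lower in wild boar without overlap, a pattern shown by 11.4% of all genes tested. DSP, not tested and named after its values were seen, also lay lower without overlap. It stood at 0.368 to 0.464 FPKM in the Rongchang pigs and at 0.147 to 0.353 FPKM in wild boar. TRPC6, a cation channel named after its values were seen, had a fold change of 0.22 and overlapped. The hippocampus list summed to 61.9 to 64.0 FPKM in the Rongchang pigs and to 45.7 to 50.6 FPKM in wild boar. Most of each sum was 1 gene, FAM163B, at 41.9 to 45.5 FPKM in the Rongchang pigs and 32.1 to 39.0 FPKM in wild boar. The median of the list ran from 5.04 to 5.47 FPKM in the Rongchang pigs and from 2.71 to 3.29 FPKM in wild boar. The share of hippocampus in each brain piece was not tested. With no filter on low values NEUROD1 had a log2 fold change of −0.39 (unadjusted p = 0.0371, adjusted p = 0.807). EN1 and PITX3 then had fold changes of −0.24 and 0.15 (adjusted p = 0.807 for both). EN1 and PITX3 are too close to 0 for their listing to show more than that.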

How the data were processed

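Brain RNA from 3 Rongchang pigs and 3 wild boars was sequenced as strand-marked (dUTP) poly(A) libraries with 100-bp paired-end reads, per the labels' protocols. TopHat2 2.0.11, Cufflinks 2.2.1 and Cuffdiff are named, per the submitters' processing notes, without roles. Build, annotation and strand setting are not named in the sources, which leaves genes with an antisense partner uncertain. The authors deposited 1 FPKM value per gene and library, made by scaling fragments to transcript length and to the fragments mapped. The header names no unit, and FPKM was judged from the named tools and the values. Of ratios between 2 libraries with both values under 0.15 FPKM, at most 23.7% fell in 1 window of 0.04 log2 units. That was for Rongchang 1 with wild boar 1, followed by 17.8% for Rongchang 3 with wild boar 3. The other pairs ran from 3.39% to 10.4%. No step common to all libraries was seen, so depth was not recovered.

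Symbols were matched to 10937 of 18225 identifiers (60.0%), and no factor had a symbol on several. Wild boar was compared with Rongchang in limma 3.58.1 (R 4.3.3), two-sided with a mean-variance trend, on log2(FPKM + 1) of the 13152 genes that reached 1 FPKM in 3 or more of the 6 libraries. Fold changes are on that scale, which understates changes of low genes. Adjustment was Benjamini-Hochberg over all genes, at 0.05. On 20 simulated tables with 200 changed genes each, the procedure recovered 48.3% of 2-fold and 88.4% of 4-fold changes. Smaller changes were not simulated. The simulated noise was independent between libraries, without the shift or the shared deviations of the real ones. Factors and lists were chosen with earlier results of these data known. Every listed factor could be named, and from the other lists up to 4 genes with the smallest p, the 2 most abundant and those under 0.1 FPKM throughout.

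Deviations from the breed mean of same-numbered animals correlated at 0.28, 0.59 and 0.37, over the bound of 0.1 used for pairing. Differently numbered animals correlated at −0.45 to 0.12, and Rongchang 1 with wild boar 3 (0.12) also passed the bound. Pairing by number comes from the data alone, since the labels do not say what a number marks. Alternatives were another pseudocount, filter, scaling, variance model, library weights, a replicate block and left-out libraries. A result on 1 further gene is not reported here.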

Additional observations from a re-analysis of the deposited data

How the results depend on the processing

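No factor passed an adjusted p of 0.05 in limma under any of the 17 alternatives (lowest adjusted p 0.193, for MEF2C with the replicate block), and 0 to 4 factors had an unadjusted p under 0.05. The number of genes called over the whole table, 1, became 3 with a pseudocount of 0.1, 0 with a mean of at least 5 FPKM and 0 without both libraries numbered 2. Leaving out 1 library gave 0 (without Rongchang 3) to 4 (without wild boar 1), and the cause was not tested. With a replicate block on the animal number the count was 1, as without it, and 2289 genes in place of 789 had an unadjusted p under 0.05. The block changed no other call. With median scaling the unadjusted count was 494, with library weights 1518, with a mean of at least 5 FPKM 405, with block and median scaling 1379, and without wild boar 2 and wild boar 3 it was 1320 and 463. The median fold change of the factors ran from −0.16 to 0.09, and 7 of the 22 kept their sign throughout. The median over all genes went from −0.13 to 0.02 with median scaling, and 9 of 22 factors then lay below 0. Counts of factors present held within 18 to 22 at bounds of 2 and 0.5 FPKM. Unknown depth limits the factors under 1 FPKM most.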

Other observations

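The GABA-synthesising enzyme GAD1 was at 55.4 FPKM in wild boar 1 and between 71.4 and 87.5 FPKM in the other libraries, and interneuron markers (9 of 12 with a row, none at 0) summed to 220 FPKM there and to between 235 and 295 FPKM elsewhere. BCL11B (0.514 FPKM) and LHX6 (2.82 FPKM) were also lowest in wild boar 1 of all 6 libraries. So were TBR1 (19.8 FPKM), FEZF2 (4.29 FPKM) and the sum of excitatory neuron markers (1403 FPKM), so low values there were not particular to interneurons. The interneuron factors NR2F2 (2.76 FPKM) and PROX1 (1.36 FPKM) were the highest of the wild boars in wild boar 1.

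Enkephalin and tachykinin precursors, both known from striatal projection neurons and from cortical interneurons, lay in opposite directions while the striatal factors overlapped. PENK was at 6.91, 6.01 and 9.37 FPKM in the Rongchang pigs and at 15.5, 11.2 and 10.98 FPKM in wild boar, and TAC1 at 7.29, 5.34 and 5.97 FPKM and at 1.77, 2.10 and 4.57 FPKM. The breeds did not overlap for either gene, where 11.4% of all genes tested were lower and 1.12% higher without overlap. These genes had the smallest p of the striatum markers, and neither passed in limma (adjusted p = 0.766 for both). ADORA2A, not tested and named after its values were seen, was lower in wild boar without overlap (0.584 to 0.758 FPKM, against 0.909 to 1.27 FPKM). The other striatum markers with a row overlapped.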
